A study of Mus musculus with 20 samples.

Results

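The mitosis genes are 40 genes whose products drive a cell from G2 through chromosome condensation, spindle assembly and separation of the daughter cells. They were taken by symbol, through every probe set that the platform annotation gives to them, and each gene was summarised by its brightest probe set over all arrays. Of the 40 genes, 36 had a probe set and 35 of these lay above the filter on dim signals, among 6099 genes above it and 8251 genes with a probe set in the series. No probe set carried the symbol of Ccnb1, Cdc25b, Bub1b or Hmmr, so the B-type cyclins are represented by Ccnb2 alone and the BubR1 checkpoint kinase is not represented.

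The values come from whole hearts of mouse fetuses at gestation day 17.5, measured on 20 Affymetrix MG-U74Av2 arrays, which carry short oligonucleotide probe sets. Dams had been gavaged on day 14.5 with corn oil alone (control, 8 arrays) or with the dioxin TCDD in corn oil at 1.5, 3 or 6 µg/kg (4 arrays each), called the low, middle and high dose below. The treatment day of 1 array in the 1.5 µg/kg group is written in another form in its label and was not used. Corn oil and gavage are thus common to every group, and no untreated hearts were analysed here. Strain, sex and litter are not named in the labels, and whether an array holds a single heart or pooled hearts is not given there either. Every p below therefore covers only the spread between these arrays. The design text speaks of 4 replicates of each dose while the titles number 8 controls, so controls 1 to 4 and 5 to 8 were also used separately. Of 15 cardiomyocyte markers 13 had a probe set and all 13 lay above the filter, with control medians up to 25955 for Myh7. The whole organ also gave signal for fibroblast, endothelial, macrophage and red cell markers, so a level below is a mean over all of its cell types.

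Mitotic genes are transcribed periodically. The kinase CDK1, bound to cyclins A and B, starts mitosis, the Aurora and Polo-like kinases build and correct the spindle, and the anaphase-promoting complex (APC/C) with its activator Cdc20 ends it once the checkpoint proteins are satisfied. Many of their promoters hold CCAAT boxes, bound by NF-Y, and the cell cycle genes homology region (CHR), bound by the DREAM and B-Myb complexes, which hold the genes silent in resting cells and raise them in G2. In the heart of a late fetus cardiomyocytes still divide, and they leave the cell cycle after birth.

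The promoters show what the members share beyond their names. In the RefSeq promoter table of assembly GRCm38.p6, which gives 250 bases before to 50 after each start, 34 of the 40 genes were found. Both strands were searched for TTTGAA, the core letters of the CHR, and for CCAAT, and no match of one overlapped a match of the other in the 37 member promoters (3 genes have 2). TTTGAA was in 25 of 34 genes (73.5%), against 5466 of 27025 genes (20.2%) in the whole table. CCAAT was in 29 of 34 (85.3%), against 41.1% of all genes, and at least 2 CCAAT were in 20 of 34 (58.8%), against 13.3%. A promoter with both was found for 23 of 34 (67.6%), against 7.97%. Birc5, Mad2l1 and Tacc3 held neither set of letters in this window. A match is a description of letters and not a bound site.

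Shown are the 120 bases just before the start for 7 members to which the values below return, in 5′ to 3′ direction of the gene, with CCAAT and TTTGAA on either strand in capitals (ATTGG and TTCAAA are the reverse strand). They are the kinesins Kif4, chrX:100625945-100626064 (plus strand), and Kif11, chr19:37376262-37376381 (plus strand), the kinases Cdk1, chr10:69352913-69353032 (minus strand), and Plk1, chr7:122159315-122159434 (plus strand), the APC/C activator Cdc20, chr4:118437344-118437463 (minus strand), its partner enzyme Ube2c, chr2:164769809-164769928 (plus strand), and the checkpoint gene Mad2l1, chr6:66535101-66535220 (plus strand).
Kif4: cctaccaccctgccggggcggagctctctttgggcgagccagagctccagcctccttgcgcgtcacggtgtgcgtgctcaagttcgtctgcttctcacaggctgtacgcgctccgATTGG
Kif11: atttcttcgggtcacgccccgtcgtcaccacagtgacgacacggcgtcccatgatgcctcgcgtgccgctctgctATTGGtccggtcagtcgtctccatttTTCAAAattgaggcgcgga
Cdk1: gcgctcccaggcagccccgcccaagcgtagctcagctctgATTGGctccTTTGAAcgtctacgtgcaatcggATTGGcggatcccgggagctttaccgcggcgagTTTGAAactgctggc
Plk1: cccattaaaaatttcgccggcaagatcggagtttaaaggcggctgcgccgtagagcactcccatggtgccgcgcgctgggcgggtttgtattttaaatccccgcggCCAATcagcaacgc
Cdc20: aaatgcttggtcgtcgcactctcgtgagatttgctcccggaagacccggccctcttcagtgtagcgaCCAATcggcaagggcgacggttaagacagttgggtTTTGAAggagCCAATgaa
Ube2c: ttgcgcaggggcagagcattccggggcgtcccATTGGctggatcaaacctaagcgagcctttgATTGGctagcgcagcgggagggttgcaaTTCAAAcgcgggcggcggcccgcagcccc
Mad2l1: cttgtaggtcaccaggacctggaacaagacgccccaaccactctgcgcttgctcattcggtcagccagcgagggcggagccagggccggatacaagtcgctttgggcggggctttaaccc
Cdk1, Cdc20 and Ube2c carry 2 CCAAT and at least 1 TTTGAA in these bases, and Kif11 has 1 of each. Kif4 and Plk1 have 1 CCAAT and no TTTGAA here, though each has 1 TTTGAA elsewhere in its 300-base promoter. Mad2l1 has neither.

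No mitosis gene passed the test at any dose, while most had mean log2 signals somewhat below control. Signals are MAS5 values as deposited, scaled to a common trimmed mean, and changes are differences of log2(signal + 32), an offset that understates changes of dim genes. Across the 35 genes the median log2 change was -0.08 at the low dose, -0.16 at the middle dose and -0.10 at the high dose, where the medians of all 6099 genes were 0.01, 0.00 and -0.01. Below control were 28 of 35 genes at the low dose, 30 at the middle dose and 30 at the high dose, against a background of 48.3%, 48.6% and 51.5% of all genes. In whole organs, fewer dividing cells and less RNA per dividing cell cannot be told apart.

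Single genes were tested in limma over all probe sets with Benjamini-Hochberg adjustment and a threshold of 0.05. The members called lower numbered 0 at each dose (background 0.0164% at the low dose, 0% at the middle dose and 0.0328% at the high dose), and 0 were called higher (background 0.213%, 0.0328% and 0.0656%). The smallest adjusted p among members was 0.0955, 0.601 and 0.209. At an unadjusted p under 0.05, 6 members were lower at the low dose (background 5.16%), 7 at the middle dose (2.39%) and 7 at the high dose (4.26%), and 0 were higher at any dose (7.43%, 3.53% and 4.48%). These were Kif4, Cdc20, Smc4, Racgap1, Cks2 and Kif11 at the low dose. At the middle dose they were Smc4, Kif2c, Ttk, Cks2, Ccnf, Kif4 and Anln, and at the high dose Kif4, Mad2l1, Anln, Plk1, Cdc20, Cdk1 and Aurkb. Kif4 is the member in all 3 sets. The 3 comparisons share the same 8 controls, so their agreement in sign is not independent: 22 members lay below control at every dose, 1 above at every dose (Ube2c) and 12 on both sides.

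For the mean of the 3 doses against control 0 members were called in limma after Benjamini-Hochberg adjustment (background 0.0164% lower), with a smallest adjusted p of 0.109. Below 0 were 30 of 35 genes (background 50.3%), with a median of -0.12, and 0 members were called higher (0.0492%). At an unadjusted p under 0.05 it gave 11 lower members (background 3.46%) and 0 higher (5.59%). The linear trend over dose called 0 members (background 0.0164% lower and 0.0656% higher), with a smallest adjusted p of 0.358 in limma. Its slopes were below 0 in 30 of 35 genes (background 51.1%) with a median of -0.02 log2 per µg/kg, and at an unadjusted p under 0.05 10 members were lower (3.53%) and 0 higher (3.51%).

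**Figure D1:**
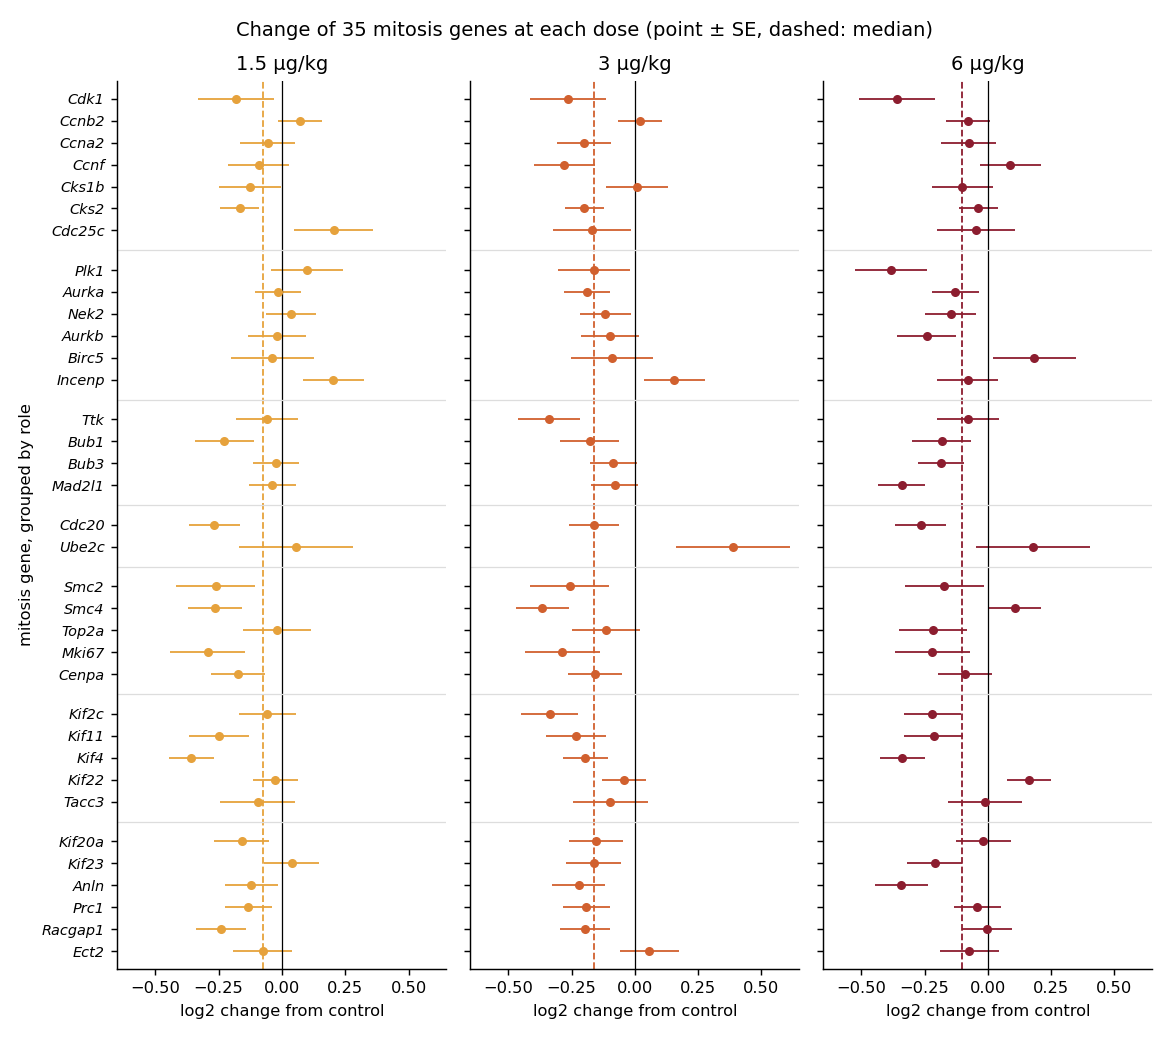
Log2 change of each of the 35 mitosis genes from control (horizontal axis) at 1.5, 3 and 6 µg/kg TCDD, grouped by role from CDK1 and its partners at the top to cytokinesis at the bottom; points are limma estimates, bars their standard errors, and the dashed line the median of the 35. Most points lie left of 0 by less than 2 standard errors, and the medians are -0.08, -0.16 and -0.10.

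The height of the control group rested in part on 3 of its arrays. A score was formed for each array as the mean over the 35 genes of the log2 signal centred on each gene's mean over the 20 arrays. It was 0.19 on control 1, 0.14 on control 2 and 0.14 on control 6, the highest 3 of all 20 arrays. The other 5 controls lay between -0.02 and 0.04. Scores ran from -0.09 to 0.03 at the low dose, from -0.14 to -0.00089 at the middle dose and from -0.10 to 0.05 at the high dose. Every dose group thus overlapped the other 5 controls. Group means were 0.07 ± 0.07 (SD, n = 8) for controls, -0.02 ± 0.05 (SD, n = 4) at the low dose, -0.07 ± 0.06 (SD, n = 4) at the middle dose and -0.05 ± 0.07 (SD, n = 4) at the high dose.

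Controls 1, 2 and 6 also stood apart in a measure of the labelled RNA. The log2 ratio of the β-actin 3′ probe set to the middle one, which is commonly read as a sign of how much of each transcript reached the label, was 1.19, 1.34 and 0.90 on these arrays and between 0.37 and 0.61 on the other 5 controls. It was 0.35 to 0.59 at the low dose and 0.39 to 0.52 at the middle dose. At the high dose it was 0.41 to 0.51 on 3 arrays and 1.02 on array 4, whose mitosis score was -0.07. High ratios thus went with high scores in the controls. The other 3 arrays of the high dose scored 0.05, -0.08 and -0.10, and 1 array cannot show how ratio and score relate at that dose. The part of this ratio in the result was not tested beyond the values that follow.

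**Figure D2:**
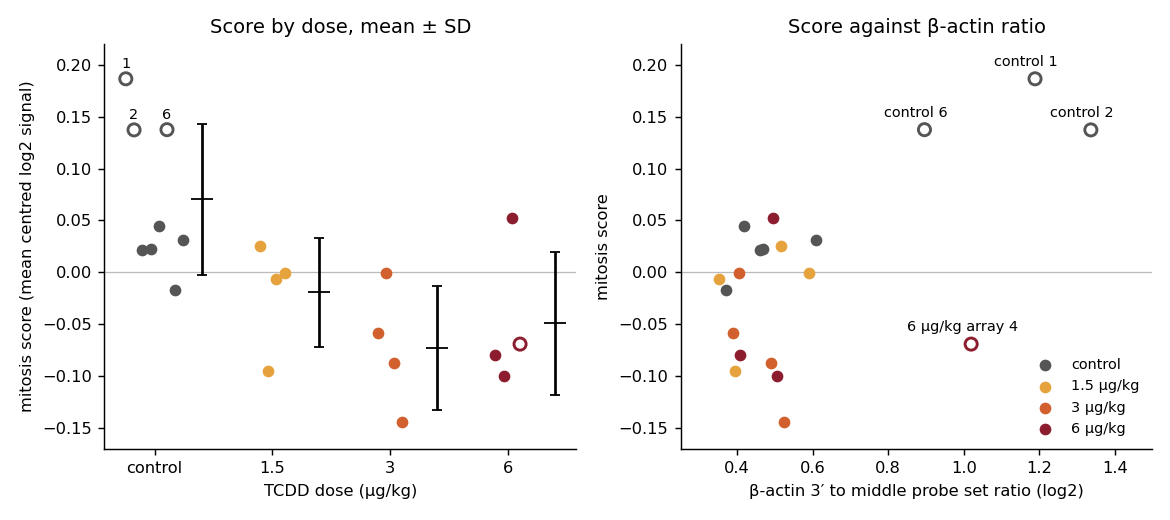
Mitosis score of each of the 20 arrays by dose (left, with mean ± SD beside each group) and against the log2 ratio of the β-actin 3′ to middle probe set (right). Open circles are the 4 arrays with a ratio of 0.90 or more: controls 1, 2 and 6 hold the 3 highest scores, and array 4 of 6 µg/kg lies at -0.07.

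Without controls 1, 2 and 6 the genes below control numbered 19 of 35 at the low dose, 29 at the middle dose and 24 at the high dose, against a background of 49.2%, 48.7% and 51.7% of 6033 genes. The low-dose count was then near the background, and the middle-dose count was 29 where all 8 controls gave 30. Controls 1, 2 and 6 held the highest scores, so leaving them out had to lower the control mean score. The direction of the shift in the score was thus fixed by the choice of arrays. The counts and medians without these arrays come from the same 35 genes, so their shift is not independent of that choice. Fewer controls also entered this fit. For the mean of the doses 27 of 35 were below control, against 50.8%. Medians were -0.03, -0.11 and -0.06, and the dose minus control difference of the score was -0.04, -0.09 and -0.07, where all 8 controls gave -0.09, -0.14 and -0.12. At an unadjusted p under 0.05, 2, 3 and 3 of 35 members were lower, against 6.51%, 3.41% and 3.55% of all genes, where all 8 controls gave 6, 7 and 7 members. Leaving out array 4 of the high dose as well gave 19, 29 and 24 genes again. With all arrays and the β-actin ratio as a covariate, 24, 28 and 27 genes were below control with medians of -0.03, -0.12 and -0.09. Against controls 1 to 4 alone the counts were 30, 32 and 29, and against controls 5 to 8 alone they were 24, 27 and 25. The controls themselves gave 16 of 35 genes lower in controls 1 to 4 than in 5 to 8 (background 48.9%), a median of 0.02 and 0 called members in limma (background 0.689% lower and 0.836% higher), with 2 lower and 2 higher at an unadjusted p under 0.05 (background 7.58% and 7.76%).

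**Figure D3:**
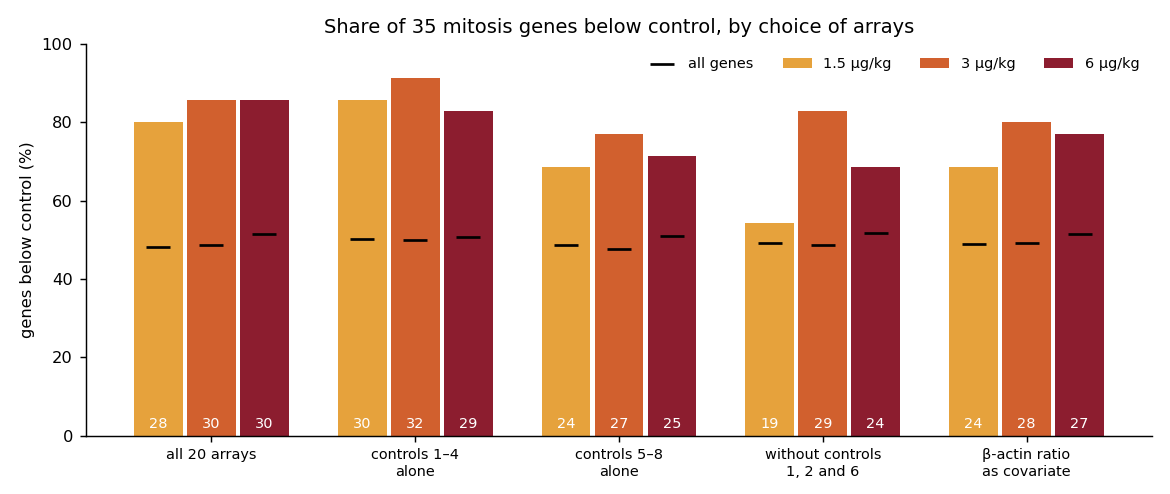
Share of the 35 mitosis genes below control at each dose (bars, percent, with the number of genes at the foot) for all 20 arrays, for either set of 4 controls, without controls 1, 2 and 6, and with the β-actin ratio as a covariate; black dashes give the share of all genes. The bars run from 32 genes at 3 µg/kg against controls 1 to 4 down to 19 genes at 1.5 µg/kg without controls 1, 2 and 6, which is near the dash of 49.2%.

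Markers of several cell types were also compared between the groups. Of all genes, 48.3%, 48.6% and 51.5% lay below control at the low, middle and high dose. The summed signal of 15 leukocyte and macrophage markers was 3772 to 4242 in controls, 4716 to 5110 at the low dose, 4885 to 5483 at the middle dose and 5110 to 5595 at the high dose, with no overlap with control, and all 13 markers above the filter were higher at every dose by value, with 0 called in limma and a smallest adjusted p of 0.0855. Of these 15 markers Ptprc and Fcer1g were near background in controls with medians of 22.8 and 12.4, while Csf1r gave 340 and C1qc 613. Of 13 cardiomyocyte markers 8 were lower at the low dose, 12 at the middle dose and 3 at the high dose, and their sums overlapped at each dose (204288 to 226001 in controls and 185581 to 207381 at the middle dose). The sum of 5 lung epithelial markers spread from 271 to 2952 within controls and reached 5255 at the middle dose. The sum of 7 mast cell markers was 1202 to 1538 in controls, 849 to 1275 at the low dose, 1088 to 1188 at the middle dose and 954 to 1214 at the high dose. Of the 4 mast cell markers above the filter, the chymase gene Cma1 was called lower, with log2 changes of -0.89, -0.80 and -1.09 (SE 0.16 each) and adjusted p of 0.0184, 0.144 and 0.00263 in limma, and of 0.00033 for the mean of the doses. It was the one gene of the cell type lists called at any dose. Of 10 fibroblast markers 8 were higher by value at each dose, with medians of 0.13, 0.09 and 0.14, about as far from 0 as the medians of the mitosis genes, and 0 were called in limma. Of 5 smooth muscle markers 4 were higher at the low dose and all 5 were lower at the high dose by value, with medians of 0.25 and -0.14. The part of these cell types in the mitosis gene values was not tested.

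The motor proteins held the clearest member. Kif4, an X-linked chromosome-bound kinesin of the condensed chromosome and the central spindle (chrX:100626065-100727271, GRCm38.p6), gave signals between 483 and 551 on the 8 controls, with a median of 528. At the low dose its signals were 426, 352, 396 and 451. At the middle dose they were 447, 501, 463 and 418, and at the high dose 476, 406, 415 and 353. All 4 arrays at the low dose and all 4 at the high dose lay below every control, and at the middle dose 3 of 4 did. Its log2 changes were -0.36, -0.20 and -0.34, with an SE of 0.09 at every dose, and the adjusted p in limma was 0.0955, 0.854 and 0.209. For the mean of the doses the change was -0.30 with an adjusted p of 0.109 in limma. Without controls 1, 2 and 6 its changes were -0.34, -0.17 and -0.32, so this gene did not rest on them. Its controls were tight, with an SD of 22.5 around a mean of 528.

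A group of 4 dose arrays wholly below the 8 controls was found for 1 of 35 members at the low dose (Kif4; background 0.394%), for 0 at the middle dose (0.262%) and for 2 at the high dose (Kif4 and Mad2l1; 0.361%). No member lay wholly above control at any dose (background 1.10%, 0.377% and 0.525%). All 4 arrays lay below the control median for 10, 17 and 12 of 35 members at the low, middle and high dose. The share of all genes was not counted for this looser rule, so positions against the control median below are descriptions only.

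Among the other kinesins and spindle proteins, Kif2c, the microtubule-depolymerising kinesin of the centromere, had control signals of 559 to 783 with a median of 667. It read 699, 699, 552 and 633 at the low dose, 528, 570, 614 and 408 at the middle dose and 547, 608, 646 and 495 at the high dose. At the higher doses 2 arrays each lay below every control, and the others lay among them. At the middle dose its log2 change was -0.34 ± 0.11 (SE) with an adjusted p of 0.707 in limma. At the low dose its change of -0.06 turned to 0.04 without controls 1, 2 and 6. Kif11, the motor that pushes the spindle poles apart, gave 529 to 733 on controls with a median of 632. It read 499, 419, 615 and 567.7 at the low dose, 497, 606, 623 and 406 at the middle dose and 472, 497, 597 and 574 at the high dose. All 12 of these arrays lay below the control median, which also held for Kif4 and Bub1. Its log2 changes were -0.25, -0.23 and -0.21, each with an SE of 0.12, and 2 arrays lay below every control at each dose. Kif22, a chromosome-arm kinesin, gave -0.03, -0.04 and 0.16 on a probe set of the _r_at kind, for which rules on probe choice were relaxed. Tacc3, a spindle pole protein, gave -0.10, -0.10 and -0.01. Over these 5 genes the counts below control were 5, 5 and 4, with medians of -0.10, -0.20 and -0.21.

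All 4 genes of the spindle assembly checkpoint, which delays anaphase until every chromosome is attached, were below control at each dose, with medians of -0.05, -0.13 and -0.18. Mad2l1 (chr6:66535221-66541107), whose product Mad2 sequesters Cdc20, gave 1175 to 1539 on controls, with a median of 1366. At the high dose its signals were 1156, 1063, 1144 and 973, all below the lowest control. At the low dose they were 1483, 1090, 1328 and 1507, and at the middle dose 1230, 1449, 1340 and 1203, within the controls but for 1 array at the low dose. The log2 changes were -0.04, -0.08 and -0.34, each with an SE of 0.09, and the adjusted p at the high dose was 0.244 in limma. Ttk, the kinase Mps1 that starts checkpoint signalling, gave 310 to 447 on controls with a median of 378. It read 348, 318, 401 and 365 at the low dose, 281, 357, 276 and 249 at the middle dose and 261, 380, 374 and 410 at the high dose. At the middle dose 3 arrays lay below every control, and its log2 change was -0.34 ± 0.12 (SE), after -0.06 at the low dose and with -0.08 at the high dose. Its adjusted p at the middle dose was 0.717 in limma. The kinase Bub1 gave -0.23, -0.18 and -0.18 and its partner Bub3 -0.02, -0.09 and -0.19.

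Cdc20 (chr4:118432901-118437343), the activator of the APC/C and the target of Mad2, gave 1819 to 2622 on controls with a median of 2263. Its signals were 1631, 1879, 1968 and 1864 at the low dose, 2121, 1790, 1709 and 2328 at the middle dose and 1664, 1784, 1858 and 2040 at the high dose. All 4 arrays at the low and at the high dose lay below the control median, and each dose overlapped the lowest controls. Log2 changes were -0.27, -0.16 and -0.27, each with an SE of 0.10, and adjusted p was 0.258, 0.906 and 0.451 in limma. Without controls 1, 2 and 6 they were -0.21, -0.11 and -0.21. Ube2c, the ubiquitin-conjugating enzyme that works with the APC/C, was dim and lay on the other side of control at each dose, with changes of 0.06, 0.39 and 0.18, each with an SE of 0.23. Its controls ran from 158 to 237 on 7 arrays and 529 on control 3. It read 193, 305, 206 and 265 at the low dose, 429, 213, 251 and 390 at the middle dose and 295, 342, 231 and 203 at the high dose. At every dose these lay within the range of the controls. Its probe set is of the _r_at kind, for which the array's design rules on probe choice were relaxed, and at the low dose its change turned to -0.12 without controls 1, 2 and 6.

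**Figure D4:**
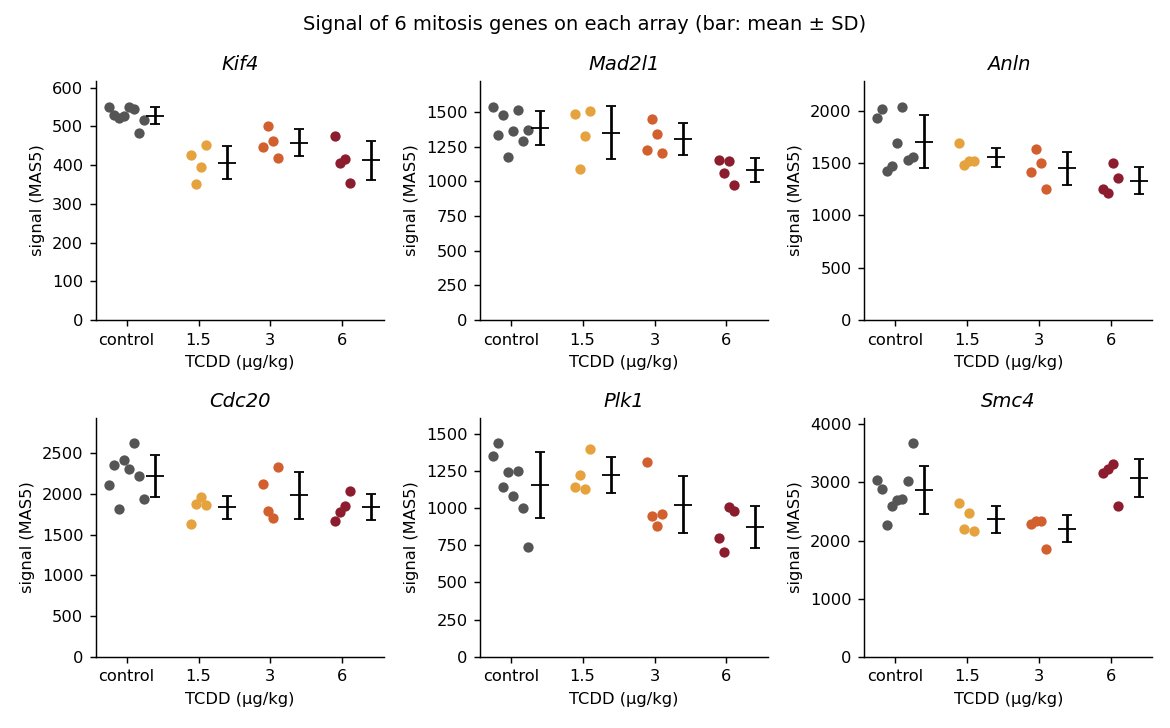
Signal of Kif4, Mad2l1, Anln, Cdc20, Plk1 and Smc4 on each array (points, MAS5 signal from 0) in controls and at 1.5, 3 and 6 µg/kg TCDD, with mean ± SD beside each group. Kif4 lies below all 8 controls at 1.5 and 6 µg/kg, Mad2l1 does so at 6 µg/kg, and Smc4 is low at 1.5 and 3 µg/kg and back among the controls at 6 µg/kg.

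CDK1 and its partners were lower in 5, 5 and 6 of 7 genes, with medians of -0.09, -0.20 and -0.08. Cdk1, the mitotic kinase itself, ranged from 1572 to 2826 on controls with a median of 2150. It read 2234, 1743, 1669 and 2014 at the low dose, 1520, 2096, 1918 and 1687 at the middle dose and 1663, 1258, 1731 and 2181 at the high dose. Its changes of -0.18, -0.27 and -0.36 were larger at each higher dose, with an SE of 0.15 each and wide overlap with controls. The adjusted p at the high dose was 0.505 in limma. How the changes of Cdk1 depend on the choice of controls was not examined. Cyclin B2 (Ccnb2), one of the brightest members on its probe set, gave 3066 to 3846 on controls with a median of 3169. It read 3066, 3701, 3552 and 3860 at the low dose, 3844, 3561, 3083 and 3174 at the middle dose and 3168, 2928, 3441 and 3181 at the high dose. These spread over the whole control range, and the log2 changes were 0.07, 0.02 and -0.08. Cyclin A2 (Ccna2) gave -0.06, -0.20 and -0.08. Cyclin F (Ccnf), the substrate receptor of an SCF ubiquitin ligase, gave -0.09, -0.28 and 0.09. Cks2, a small CDK-binding subunit, had narrow controls of 2476 to 2894 with a median of 2781. It read 2349, 2512, 2119 and 2768 at the low dose, 2386, 2478, 2097 and 2537 at the middle dose and 2441, 2588, 2851 and 2753 at the high dose. At each of the lower doses 2 arrays lay below every control, with changes of -0.17, -0.20 and -0.04 (SE 0.08 each). Its adjusted p was 0.374 and 0.743 at the low and middle doses in limma. Its relative Cks1b gave -0.13, 0.01 and -0.10. The phosphatase gene Cdc25c gave 0.20, -0.17 and -0.05 on its brightest probe set, which is of the _s_at kind. Its other probe set, without such a suffix, gave -0.16, -0.23 and -0.25.

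The kinases and the chromosomal passenger complex were below control in 3, 5 and 5 of 6 genes, with medians of 0.01, -0.11 and -0.14. Plk1, the Polo-like kinase of centrosomes and kinetochores, gave 740 to 1434 on controls with a median of 1192. Its signals were 1139, 1219, 1129 and 1396 at the low dose, 1306, 948, 879 and 957 at the middle dose and 800, 706, 1007 and 976 at the high dose. All arrays at the high dose lay below the control median, but control 8 lay lower than 3 of them. The changes were 0.10, -0.16 and -0.38, each with an SE of 0.14, with an adjusted p of 0.451 at the high dose in limma. At the high dose its other 2 probe sets gave 0.17 and 0.21, on the other side of control. Both are of the _f_at kind that can cross-hybridise. The brightest probe set is itself of the _g_at kind, so no Plk1 probe set here is free of such a suffix. The gene's direction at the high dose differs between probe sets. Against controls 1 to 4 alone the change was -0.56 with an adjusted p of 0.0345 in limma, the one member called at a dose under any choice of arrays tried. In that fit 1.06% of all genes were called lower. Against controls 5 to 8 alone its change was -0.20 with an adjusted p of 0.979, and without controls 1, 2 and 6 it was -0.24 with an adjusted p of 0.770 in limma. No member was called in either of these fits. Aurkb, the kinase of the passenger complex, gave -0.02, -0.10 and -0.24, while its partner survivin (Birc5) gave -0.04, -0.09 and 0.18. The scaffold Incenp gave 361 to 589 on controls with a median of 438. It read 472, 521, 458 and 573 at the low dose, 483, 488, 510 and 469 at the middle dose and 443, 485, 432 and 300 at the high dose. At the lower doses all 8 arrays lay above the control median, with changes of 0.20 and 0.16, against -0.08 at the high dose (SE 0.12 each). Its dimmer probe set gave -0.09, 0.06 and -0.14, so the probe sets differ in sign at the low dose. Aurka, the spindle pole kinase, gave -0.02, -0.19 and -0.13, and Nek2, which separates centrosomes, 0.04, -0.12 and -0.15.

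Genes of chromosome structure were below control in 5, 5 and 4 of 5, with medians of -0.26, -0.26 and -0.17. Smc4 (chr3:69004738-69034623), a core ATPase of condensin, had signals of 2273 to 3673 on controls with a median of 2801. It read 2647, 2191, 2470 and 2165 at the low dose and 2292, 2342, 2338 and 1856 at the middle dose, all below the control median. At the high dose it read 3159, 3228, 3316 and 2588, of which 3 lay above that median. The changes were -0.26, -0.37 and 0.11, each with an SE of 0.11, and adjusted p was 0.303, 0.601 and 0.778 in limma. Set directly against the middle dose, a choice made after the data had been seen, the high-dose signal was higher by 0.47 ± 0.12 (SE) on the log2 scale. The adjusted p was 0.176 in limma. Its condensin partner Smc2 did not share this pattern by value, with changes of -0.26, -0.26 and -0.17 (SE 0.16 each).

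The proliferation antigen gene Mki67 gave -0.29, -0.29 and -0.22 on its brightest probe set, with controls of 1098 to 1466. Its second probe set, of the _r_at kind, gave 0.44, 0.25 and 0.27, so the 2 probe sets of Mki67 disagree in sign at every dose. Top2a, the topoisomerase that untangles sister chromatids, gave -0.02, -0.11 and -0.22, and the centromeric histone gene Cenpa -0.17, -0.16 and -0.09. Cenpe, a kinetochore kinesin, lay below the filter, with signals of 44.0 ± 12.1 (SD, n = 8) on controls. Its log2 differences were 0.13, 0.00 and -0.07, with p of 0.604, 0.994 and 0.794 in two-sided exact permutation tests, whose smallest possible p is 0.00202, and 0.994 for each after Benjamini-Hochberg adjustment over the 3 doses.

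Cytokinesis genes, which build the contractile ring and the midbody, were below control in 5, 5 and 6 of 6 with medians of -0.13, -0.18 and -0.06. Anln, the anillin scaffold of the ring, had control signals of 1421 to 2040 with a median of 1623. It read 1694, 1481, 1519 and 1522 at the low dose, 1417, 1633, 1503 and 1251 at the middle dose and 1250, 1215, 1503 and 1359 at the high dose, where 3 arrays lay below every control. Its changes of -0.12, -0.22 and -0.34 (SE 0.10 each) were larger at each higher dose, with an adjusted p of 0.295 at the high dose and 0.369 for the linear trend in limma. The highest controls of Anln were 1, 2 and 6, and without them the changes were 0.02, -0.08 and -0.20. Racgap1, the GTPase-activating subunit of centralspindlin, gave 651 to 858 on controls with a median of 709. It read 533, 559, 672 and 684 at the low dose, 660, 656, 695 and 516 at the middle dose and 681, 701, 815 and 702 at the high dose. All arrays of the lower doses lay below the control median, and those of the high dose lay within the controls. The change was -0.24 ± 0.10 (SE) at the low dose and -0.20 at the middle dose. Its adjusted p at the low dose was 0.324 in limma. The motor Kif23, its partner in centralspindlin, gave 0.04, -0.16 and -0.21, and the midzone bundler Prc1 -0.13, -0.19 and -0.04. The exchange factor Ect2 gave -0.08, 0.06 and -0.07. The motor Kif20a gave -0.16, -0.15 and -0.02 on its brightest probe set, which is of the _f_at kind that can cross-hybridise, and -0.24, -0.38 and -0.35 on the other.

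The doses were also set against each other, a choice made after the data had been seen. In limma 0 members were called for the middle against the low, the high against the low or the high against the middle dose (background of all genes, lower and higher, 0% and 0%, 0.246% and 0.0328%, 0.0328% and 0%). At an unadjusted p under 0.05 these comparisons gave 2 lower and 0 higher members (1.46% and 1.30%), 2 and 1 (8.99% and 6.36%) and 1 and 2 (6.20% and 5.07%). For the high against the low dose Plk1 gave -0.48 and Mad2l1 -0.30, and Smc4 0.37, with adjusted p of 0.159, 0.176 and 0.141 in limma. Below 0 were 23, 16 and 17 of 35 genes, against 49.9%, 50.6% and 52.4% of all genes. Medians over the 35 genes were -0.05, 0.0026 and 0.02.

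The rest of the cell cycle programme showed a like direction in part, with 0 genes called in limma at any dose in each list (background 0.213% called higher at the low dose, 0.0328% at the middle dose and 0.0656% at the high dose). Of 21 other mitosis genes 14, 18 and 15 lay below control, with medians of -0.07, -0.11 and -0.09. Among them the condensin gene Ncaph gave -0.27, -0.11 and -0.48 and the passenger gene Cdca8 -0.22, -0.19 and -0.13. Of 14 APC/C and cohesin genes 9, 8 and 11 were below control, with medians of -0.06, -0.02 and -0.07. Among them the cohesin loader Nipbl gave -0.27 and -0.27 at the lower doses. Of 13 regulators of the mitotic genes, such as E2F, Rb family and NF-Y genes, 5, 6 and 9 were below control. Their medians were 0.07, 0.02 and -0.07, so this list did not share the direction at the lower doses. For the mean of the doses 10 of the 13 were above control. Of all genes, 48.3%, 48.6% and 51.5% were below control at the low, middle and high dose. The NF-Y subunit gene Nfyb gave -0.39 ± 0.12 (SE) at the low dose, with an adjusted p of 0.167 in limma, and -0.0095 at the middle dose. Between the control sets, 1 of the 21 other mitosis genes was called higher in controls 1 to 4 (adjusted p 0.0470 in limma, background 0.836%). Of the regulators, 1 was called lower there (adjusted p 0.0259 in limma, background 0.689%). The fit without controls 1, 2 and 6 was not summarised for the other mitosis genes, APC/C and cohesin genes or regulators.

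Genes of the G1/S transition and DNA replication, which act before mitosis, were below control in 19, 23 and 31 of 36, with medians of -0.03, -0.06 and -0.12. Their count was thus highest at the high dose, against a background of 51.5%. Their median was farther from 0 between the control sets than at any dose: 26 of 36 were higher in controls 1 to 4 than in 5 to 8, with a median of 0.22 and 1 gene called in limma (background 0.836%). Against controls 1 to 4 alone, a comparison added after the data had been seen, 25, 29 and 30 of 35 were below control with medians of -0.14, -0.11 and -0.24. Against controls 5 to 8 alone 14, 15 and 23 of 36 were, with medians of 0.06, 0.05 and -0.07, so the direction at the lower doses turned with the controls used. Without controls 1, 2 and 6 it was 17, 15 and 29 of 36, with medians of 0.03, 0.02 and -0.07. Among the doses against control, Mcm7, a subunit of the replicative helicase, had the smallest adjusted p of these lists. It was 0.0804 in limma at the high dose for a change of -0.39 ± 0.08 (SE), after -0.12 and -0.02 at the lower doses. The primase gene Prim1 gave -0.45, -0.54 and -0.19. Of 12 CDK inhibitor and antiproliferative genes 6, 7 and 8 were below control, near the background shares, with Cdkn2d at -0.23, -0.19 and -0.14.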

How the data were processed

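Total RNA of whole fetal hearts was hybridised to 20 MG-U74Av2 arrays. The deposited values are MAS5 signals (linear intensity), per the submitters' processing notes, whose version is not given in the sources used here. Gene names came from the platform annotation, updated through RefSeq (GRCm38.p6): 10833 probe sets carry 1 symbol, 396 several and 1193 none. Without 66 control probe sets, 12422 remained. Arrays were brought to the same 2% trimmed mean (500) before log2(signal + 32), and probe sets at or above their array's 40th percentile on at least 4 arrays were kept (8097). All 20 arrays entered 1 fit in R 4.3.3 with limma 3.58.1 (eBayes with an intensity trend, two-sided, Benjamini-Hochberg, 0.05), tested on simulated data. Array medians lay between 171 and 211, correlations between 0.941 and 0.981, and the number of arrays limits the precision. Plots used matplotlib 3.10.9 in Python 3.11.

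The members and all gene lists were chosen with earlier results of these data known. Values in every array are given for up to 4 members with the smallest p per comparison, the 2 farthest above control and the brightest in controls, and for Cdk1. Up to 3 genes per other list are named by the smallest p of the mean of the doses. Same-numbered arrays of different groups did not deviate together (correlations -0.22 to 0.21, over 0.1 in 5 of 24 pairs), so the numbers were not used as pairs. Alternatives were other normalizations, offsets, filters, control sets, covariates, weights and leaving out each array.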

Additional observations from a re-analysis of the deposited data

Results flagged for a closer look

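Of 64 groups of 4 to 8 arrays examined for a single distant array, 5 held one; chance gives about 1 in 20 groups. Incenp read 589 on control 1, the highest of the 8 controls. Ube2c read 529 on control 3, the highest of 8. Racgap1 read 815 on array 3 of the high dose, the highest of 4. Smc4 read 1856 on array 4 of the middle dose, the lowest of 4. The β-actin 3′ to middle log2 ratio was 1.02 on array 4 of the high dose, the highest of 4.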

How the results depend on the processing

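The number of mitosis genes called was 0 at each dose and for the mean of the doses with all alternatives run but 1. These were quantile normalization, the deposited signals, other offsets (1 and 100), the filter removed or set at the 60th percentile, other probe set summaries, no intensity trend, fits of the compared groups, array weights, the β-actin covariate, control subsets, the replicate block and each array left out. The deposited signals already had trimmed means of 500.28 to 500.34, so that alternative could hardly move a value. The exception was 1 (Plk1) at the high dose against controls 1 to 4, which also gave 1 (Plk1) for the trend, in fits that called 2.22% and 2.04% of all genes, where all 20 arrays gave 0.0984% and 0.0820%. With the replicate number as a block the trend called 1 (Plk1) and 1.66% of all genes; the numbers do not pair the arrays. Array weights called 1 (Smc4) for the high against the middle dose and 2 (Kif22 and Plk1) between the control sets, where they called 1.82% and 9.76% of all genes against 0.0328% and 1.52% with equal weights.

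Small log2 changes turned sign. Against controls 1 to 4, and equally with the replicate block, the low dose gave -0.025 for Ccnb2, -0.080 for Plk1 and -0.089 for Ube2c, and the middle dose -0.079 for Ccnb2. Against controls 5 to 8, Plk1 was 0.016 at the middle dose, and at the high dose Ccnb2 was 0.018, Incenp 0.041 and Racgap1 0.0094. Without controls 1, 2 and 6, and likewise without array 4 of the high dose too, the low dose gave 0.020 for Anln, 0.038 for Kif2c, 0.011 for Mad2l1 and -0.12 for Ube2c. At the high dose these choices gave 0.015 and 0.15 for Incenp and 0.046 and 0.059 for Racgap1. Racgap1 was 0.0070 with quantile normalization and 0.012 with the β-actin covariate, which gave -0.089 for Ube2c at the low dose. Array weights gave 0.043 for Incenp at the high dose. Cenpe was -0.18 at the middle dose with an offset of 1, 0.068 at the high dose against controls 1 to 4, and -0.0098 and -0.14 at the low and middle doses against controls 5 to 8.

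With each array left out in turn, 0 members were called, and 8 changes crossed 0. At the low dose Kif2c ran from -0.097 to 0.012, Mad2l1 from -0.092 to 0.060 and Ube2c from -0.048 to 0.22. Ccnb2 ran from -0.039 to 0.066 at the middle dose. At the high dose Cks2 ran from -0.072 to 0.0012, Incenp from -0.16 to 0.057, Racgap1 from -0.058 to 0.031 and Ttk from -0.15 to 0.051. The medians ran from -0.10 to -0.054 at the low, -0.19 to -0.14 at the middle and -0.14 to -0.10 at the high dose. The cause was not tested.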
